A study of Homo sapiens with 24 samples.

Results

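The 10 genes followed here are commonly used to mark intestinal stem cells, and their RNA was measured under butyrate treatment and under induction of a dominant negative Tcf4 in a colorectal cancer cell line. They are LGR5, ASCL2, PROM1, CD44, MSI1, MSI2, SMOC2, TNFRSF19, BMI1 and ALCAM, and their probes were taken by name, as every non-control probe that the arrays' own annotation assigns to one of them. This gave 14 probes for the 10 genes, of 34127 different probes on the array. Of these, 9 probes for 7 genes met the filter, which asked that a treatment have its 6 arrays all well above background, and were tested among 18983 probes in all, while both SMOC2 probes and the only probes of LGR5 and ASCL2 were not. The MSI1 probe and 1 of 2 MSI2 probes passed this filter only through the groups without butyrate, where they were higher.

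The cells were HCT-116, an established human colorectal carcinoma line, carrying in every group a Tet repressor and a doxycycline-inducible DN-Tcf4, a Tcf4 that lacks the part which binds beta-catenin. All arrays came from 1 stably transfected clone. Cells had neither agent (Ctl, untreated or mock-treated in the labels), 5 mM sodium butyrate (NaB), 4 µg/ml doxycycline (Doxy) or both (DoxyNaB). The labels give 17.5 hr as the treatment time, and in the study's methods that is the time with butyrate, which followed the start of doxycycline. Each of 6 numbered experiments held all 4 treatments, 24 arrays in all. In experiment 1 the butyrate arrays lay on another slide, scanned on another date, than the arrays without butyrate. Butyrate, a product of fibre fermentation in the colon, inhibits histone deacetylases.

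In the intestinal crypt, stem cells at the base are maintained by Wnt signals, which stabilise beta-catenin and let it act with Tcf factors on target genes. LGR5 is a receptor for R-spondins, secreted proteins that strengthen the Wnt signal, and ASCL2 is a transcription factor of the same cells. The other genes on the list mark stem cells, progenitors or tumour-initiating cells more loosely, and several are also expressed outside the crypt base.

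The probes that the results turn on are shown by the first 30 of their 60 bases, written 5′ to 3′ in the sense of the transcript, because a gene's result here is the result of 1 or 2 short stretches. Positions are those of the array annotation, on the NCBI36 build (hg18). The LGR5 and ASCL2 probes are shown because their dimness limits what can be said of the defining stem cell markers, the MSI2 pair because its probes changed by different amounts, and the TNFRSF19 pair because only its upstream probe could be tested.
LGR5, chr12:70264592-70264651, plus strand: acacccaagcttgatgtcaattaactctga
ASCL2, chr11:2246535-2246594, minus strand: ctgctggagggacactgctggcaaacggag
CD44, chr11:35210388-35210447, plus strand: gcacacccttcctctggtttttgtatattt
PROM1, chr4:15591144-15591203, minus strand: tttttgcggtaaaactggctaagtactatc
MSI2 transcript variant 1, chr17:53112021-53112080, plus strand: atggctcacttcggatcgagggttgactac
MSI2 transcript variant 2, chr17:53065116-53065175, plus strand: tttgtctgtgctggtagtttgtgagaagtg
TNFRSF19 upstream, chr13:23065652-23065711, plus strand: gccagggagacaaatggtctagctcagcag
TNFRSF19 downstream, chr13:23141117-23141176, plus strand: tctagatataacaacacactggtagaatca

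The TNFRSF19 probes do not stand for the same RNA. The upstream one was designed from a cDNA clone that the array annotation describes as having an apparent retained intron, and the downstream one from transcript variant 1. The MSI2 probes were designed from transcript variants 1 and 2, and the 2 probes of BMI1 and of SMOC2 each from the same reference transcript.

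Levels are given as the log2 of a probe's processed signal relative to the array's 75th percentile, so a level of 0 is the 75th percentile, and changes are differences of such levels within an experiment. Arrays of experiments 2 to 4 were scanned together and had 78.4 to 88.1% of probe spots well above background, against 52.7 to 62.6% on the other arrays, and the 75th percentile signals ranged from 380 to 1323 intensity units. The epithelial markers EPCAM, CDH1, KRT8, KRT18 and KRT19 were all tested. Of 10 markers of fibroblasts, leukocytes and endothelium, COL3A1 was well above background on no array and 4 were tested, of which 3, COL1A1 and VWF among them, were called higher in NaB/Ctl and in DoxyNaB/Doxy. In NaB/Ctl the count was 2 with normexp, another background correction, without VWF, and 2 when arrays were scaled to their median, without COL1A1. VWF was tested only through the butyrate groups, since it was well above background on 3 Ctl and 4 Doxy arrays. The summed level of the 10, on a linear scale on which 1 is the 75th percentile, was 0.439 to 1.02 in Ctl, 0.470 to 1.04 in Doxy, 1.19 to 2.61 in NaB and 1.27 to 3.29 in DoxyNaB, and its part in the changes below was not tested.

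The construct and its best known target were examined first. Of the 3 tested TCF7L2 probes, for the gene of Tcf4, 2 were higher in DoxyNaB than in NaB, by 2.96 and 4.46 on the log2 scale (limma, adjusted p = 3.68e-05 and 1.77e-06), but gave -0.17 and 0.30 in Doxy against Ctl. The probe with 4.46 also gave 1.90 in NaB/Ctl, without doxycycline (adjusted p = 0.000468), a call lost under every other scaling (adjusted p = 0.0219 to 0.652). The remaining probe, which lies upstream of both, gave -1.25 in DoxyNaB/NaB (adjusted p = 0.00568), and -1.15 when arrays were scaled to their median (adjusted p = 0.00357). It gave -0.10 with normexp (adjusted p = 0.816) and -1.07 under quantile normalization (adjusted p = 0.0434). The study says that DN-Tcf4 lacks the part which binds beta-catenin. The labels do not say which bases of the gene the construct carries, and where the probes lie relative to it was not determined. AXIN2, a direct Wnt target that acts as feedback inhibitor of the pathway, changed by -0.58 in Doxy against Ctl (adjusted p = 0.0029) and by -2.53 in DoxyNaB against NaB (adjusted p = 2.64e-11). The first of these calls was lost under every other scaling (-0.46 to -0.67, adjusted p = 0.520 to 1), and the second was kept under each. The response of AXIN2 to butyrate thus differed with doxycycline (interaction 1.95, adjusted p = 8.26e-08, or 1.76 with 0.021 when arrays were scaled to their median).

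**Figure D1:**
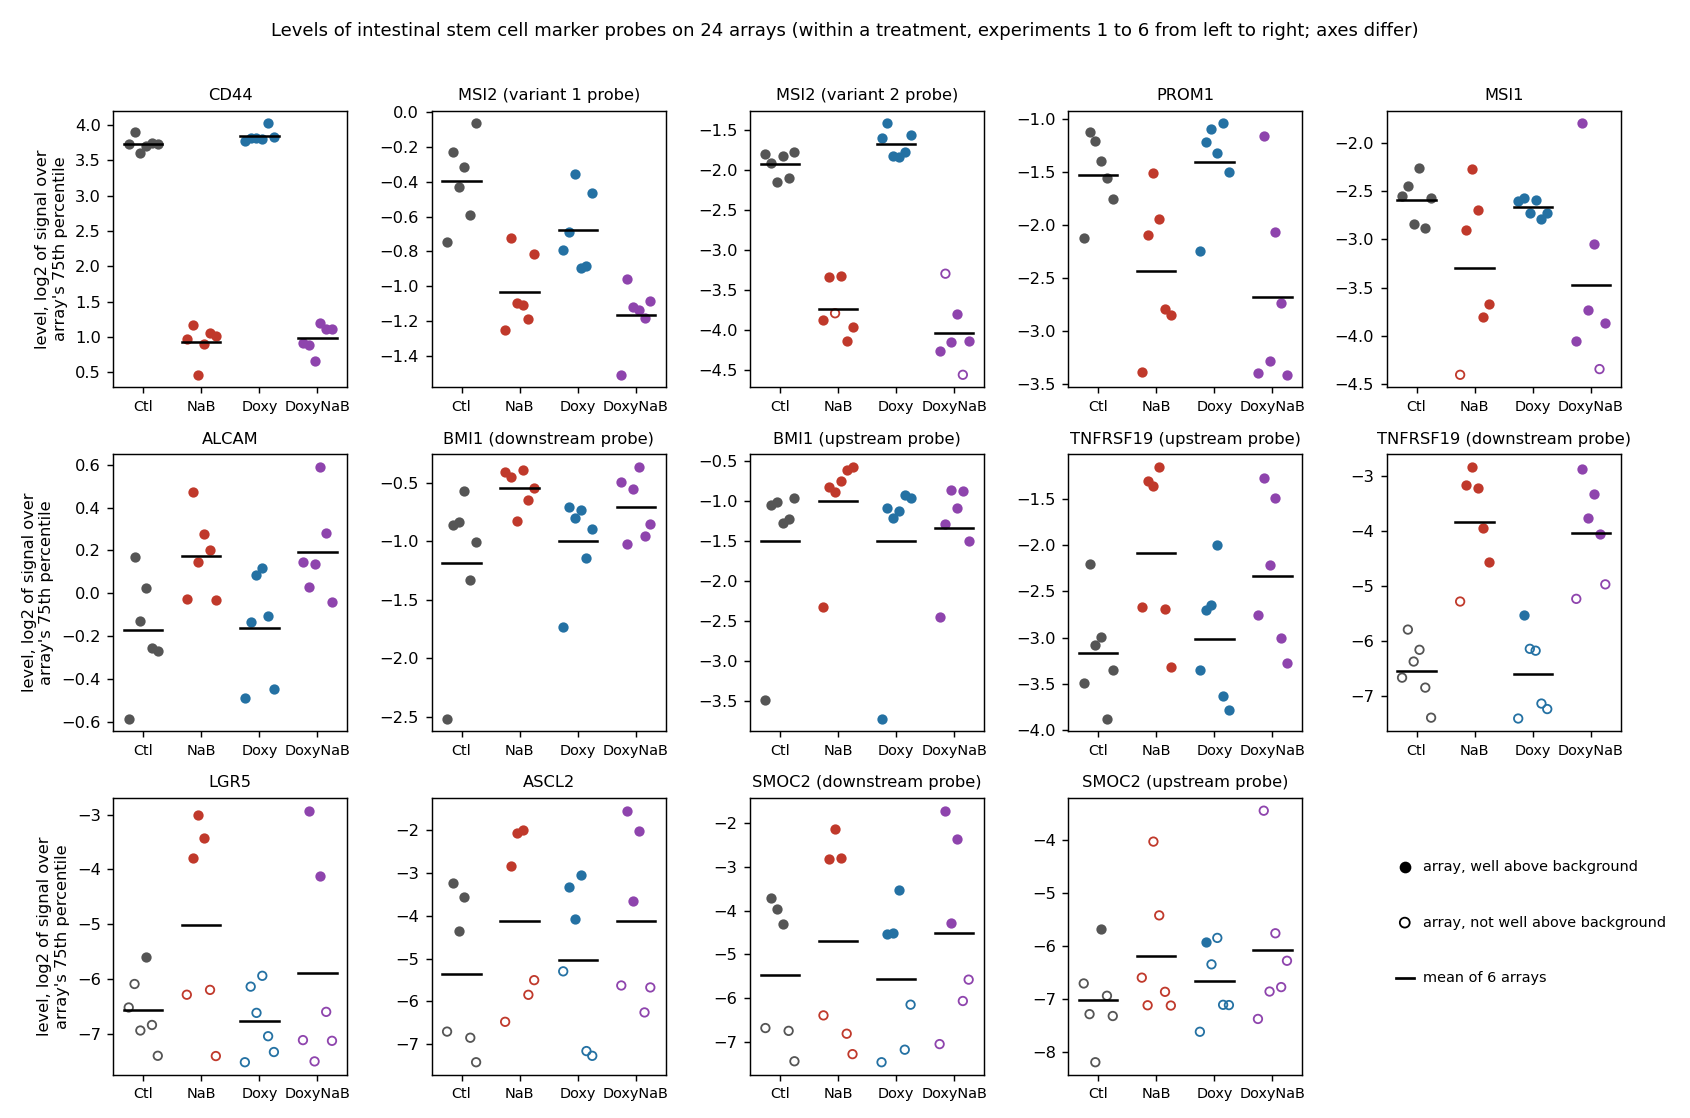
Level of each of the 14 probes on the 24 arrays, as log2 of the signal over the array's 75th percentile, with 1 panel a probe and treatments on the x axis. Points are arrays, in the order of the 6 experiments, filled where the probe was well above background, and bars are means. The CD44 levels of 0.47 to 1.20 on butyrate arrays lie far below the 3.60 to 4.02 of the others, and ASCL2 is well above background in experiments 2 to 4 alone.

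CD44 gave the clearest response. CD44 is a cell surface receptor for hyaluronan and is used to isolate tumour-initiating cells of the colon. Its level was 3.60 to 3.90 (median 3.73) in Ctl, 0.47 to 1.17 (median 0.99) in NaB, 3.78 to 4.02 (median 3.81) in Doxy and 0.66 to 1.20 (median 1.01) in DoxyNaB. All 12 butyrate arrays lay below all 12 arrays without butyrate, and the probe was well above background on each. The change was -2.80 ± 0.17 (SD, n = 6 experiments) in NaB/Ctl, a 6.98-fold fall (limma, adjusted p = 5.06e-15), and -2.86 ± 0.19 in DoxyNaB/Doxy (adjusted p = 3.90e-15). In single experiments the fall in NaB/Ctl ran from -3.13 to -2.68.

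MSI2 fell as well, to a different extent at each probe. MSI2 encodes Musashi 2, an RNA-binding protein that controls translation in stem and progenitor cells. At the variant 1 probe, the brighter one, levels were -0.75 to -0.06 (median -0.37) in Ctl, -1.25 to -0.73 (median -1.10) in NaB, -0.89 to -0.35 (median -0.74) in Doxy and -1.51 to -0.96 (median -1.13) in DoxyNaB. The probe was lower in 6 of 6 experiments in each butyrate comparison, although Ctl and NaB touched at their edges. The changes were -0.63 ± 0.12 (SD, n = 6) in NaB/Ctl (adjusted p = 1.71e-06) and -0.49 ± 0.24 in DoxyNaB/Doxy (adjusted p = 3.95e-05). With normexp the latter was -0.32 and not called (adjusted p = 0.0313).

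At the MSI2 variant 2 probe, levels were -2.15 to -1.77 (median -1.86) in Ctl, -4.14 to -3.33 (median -3.83) in NaB, -1.84 to -1.41 (median -1.69) in Doxy and -4.56 to -3.30 (median -4.14) in DoxyNaB. There the butyrate groups lay wholly below the others, and the probe was not well above background on 1 NaB and 2 DoxyNaB arrays. Its Ctl and Doxy levels overlapped. It changed by -1.82 ± 0.33 (SD, n = 6) in NaB/Ctl (adjusted p = 3.69e-10) and by -2.37 ± 0.38 in DoxyNaB/Doxy (adjusted p = 9.35e-12). With normexp background correction these changes were -1.16 and -0.81, beside -0.53 and -0.32 at the variant 1 probe. The gap between the probes was thus smaller with normexp, where it was not tested. Under the scaling used for the levels, the fall was larger at the variant 2 than at the variant 1 probe in every experiment, by 1.18 ± 0.35 in NaB/Ctl and by 1.88 ± 0.34 in DoxyNaB/Doxy. The two-sided exact permutation test over experiments gave p = 0.03125 for each, the smallest it can give with n = 6, and 0.0625 after adjustment over the 4 genes with 2 probes. The fall at the variant 2 probe was also larger with than without doxycycline in 6 of 6 experiments, with an interaction of 0.55 ± 0.15 that did not pass the test (adjusted p = 0.156), that was 0.19 under quantile normalization and that turned to -0.35 with normexp.

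**Figure D2:**
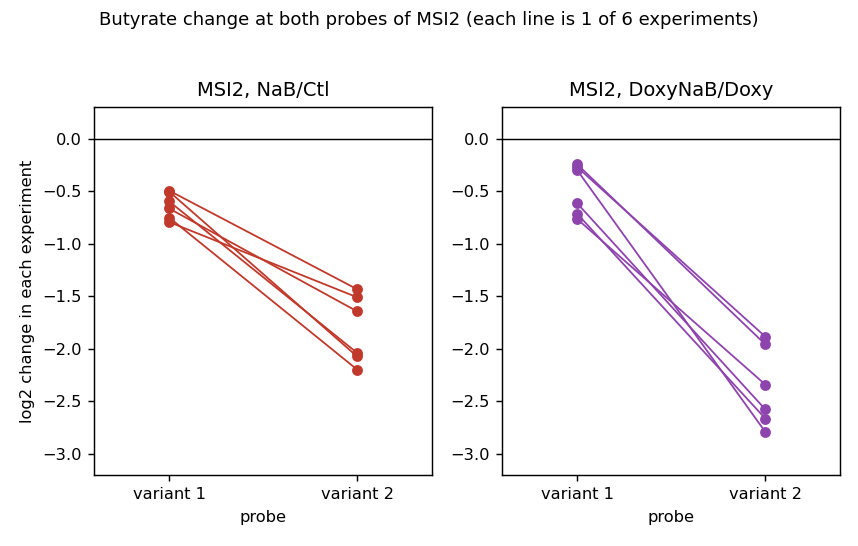
Change with butyrate (log2, y axis) at both probes of MSI2, with 1 line for each of the 6 experiments and 1 panel for each butyrate comparison. Every line falls from the variant 1 to the variant 2 probe (mean -0.63 to -1.82 in NaB/Ctl).

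PROM1, which encodes prominin 1 (CD133), a pentaspan protein of membrane protrusions, fell more variably. Its levels were -2.13 to -1.12 (median -1.48) in Ctl, -3.39 to -1.50 (median -2.44) in NaB, -2.25 to -1.04 (median -1.27) in Doxy and -3.41 to -1.16 (median -3.01) in DoxyNaB. The groups overlapped, and the highest butyrate arrays were NaB of experiment 3 (-1.50) and DoxyNaB of experiment 2 (-1.16). The change was -0.90 ± 0.39 (SD, n = 6), lower in 6 of 6 experiments, in NaB/Ctl (adjusted p = 0.0030) and -1.27 ± 0.84, lower in 5 of 6, in DoxyNaB/Doxy (adjusted p = 0.000149). Both calls were lost with normexp, at -0.68 and -0.39 (adjusted p = 0.0191 and 0.145). Within experiments 2 to 4 alone the changes were -0.61 and -0.96 and did not pass (adjusted p = 0.232 and 0.0773), and within experiments 5 and 6 they were -1.17 and -1.80 (adjusted p = 0.0015 and 0.000287).

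MSI1, the Musashi 1 paralog of MSI2 and an older marker of crypt stem cells, had levels of -2.88 to -2.26 (median -2.56) in Ctl, -4.41 to -2.26 (median -3.29) in NaB, -2.79 to -2.57 (median -2.66) in Doxy and -4.35 to -1.79 (median -3.80) in DoxyNaB. Its changes of -0.70 ± 0.81 (SD, n = 6) and -0.81 ± 0.87 did not pass the threshold of 0.01 (adjusted p = 0.0374 and 0.0185), but under quantile normalization they were -1.74 and -1.54 and when arrays were scaled to their median -1.45 and -1.37, and passed in each. With normexp they were -0.48 and 0.01. The same 2 arrays that were high for PROM1 were the highest of their groups for MSI1, and they had the highest signal at the negative control spots of all arrays (161 and 249 intensity units, with 48.4 to 115 on the other 22). Without these 2 arrays, a choice made after seeing the data, MSI1 passed in both comparisons (-0.93 and -1.09, adjusted p = 0.000217 and 4.53e-05) and PROM1 gave -1.07 and -1.50. The part of the raised controls in the result was not tested further.

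TNFRSF19 gave the largest positive changes of the members tested. It encodes a receptor of the tumour necrosis factor receptor family, also called TROY, that is expressed in crypt base stem cells. At the downstream probe, levels were -7.39 to -5.79 (median -6.52) in Ctl and -7.41 to -5.52 (median -6.66) in Doxy, where it was well above background on 0 and 1 of 6 arrays. In NaB they were -5.28 to -2.83 (median -3.57) and in DoxyNaB -5.23 to -2.87 (median -3.90), well above background on 5 and 4 arrays. The probe was thus too dim to enter the test. The treated and untreated groups did not overlap. Under the scaling used for these levels, NaB was 2.97-fold Ctl with the NaB signals taken as measured. This counts each Ctl array at the higher of its own signal and of the lowest signal well above background there. It is a lower bound only if the NaB signals are right, which was not tested. The value was not computed under other scalings. The highest signals, 98.4 to 181 units, lay on NaB of experiments 2 to 4 and DoxyNaB of experiments 2 and 4. These arrays had negative control signals over 100 units, whose part was not tested. NaB of experiments 5 and 6 and DoxyNaB of experiments 3 and 5 had lower controls, and the probe was well above background there too.

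At the upstream TNFRSF19 probe, which was well above background on all arrays, levels were -3.87 to -2.20 (median -3.21) in Ctl, -3.32 to -1.16 (median -2.02) in NaB, -3.79 to -2.00 (median -3.03) in Doxy and -3.28 to -1.28 (median -2.49) in DoxyNaB. All groups overlapped, but within experiments the level was higher with butyrate in 6 of 6, by 1.08 ± 0.66 in NaB/Ctl (limma, adjusted p = 3.54e-05) and by 0.68 ± 0.37 in DoxyNaB/Doxy (adjusted p = 0.0026). Without a term for the experiment the same changes had adjusted p = 0.0283 and 0.161, and under quantile normalization they shrank to 0.46 and 0.08 and did not pass, nor when arrays were scaled to their median (0.33 and 0.12) or corrected with normexp (0.44 and 0.67, adjusted p = 0.167 and 0.0344).

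ALCAM, which encodes the adhesion molecule CD166, had levels of -0.59 to 0.17 (median -0.19) in Ctl, -0.03 to 0.47 (median 0.18) in NaB, -0.49 to 0.12 (median -0.12) in Doxy and -0.04 to 0.59 (median 0.14) in DoxyNaB. It was higher with butyrate in 6 of 6 experiments by the small amounts of 0.35 ± 0.13 (SD, n = 6, adjusted p = 0.0027) and 0.35 ± 0.21 (adjusted p = 0.0025), a 1.27-fold rise in NaB/Ctl, but turned to -0.40 and -0.21 when arrays were scaled to their median (adjusted p = 0.108 and 0.422). The call was also lost under quantile normalization, at 0.29 in each (adjusted p = 0.0103 and 0.0121), and with normexp, at 0.31 and 0.26 (adjusted p = 0.0298 and 0.0504).

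BMI1, a subunit of Polycomb repressive complex 1 that keeps cell cycle inhibitors silent and marks slowly cycling cells above the crypt base, did not pass. At the brighter probe its levels were -2.51 to -0.58 (median -0.93) in Ctl, -0.83 to -0.39 (median -0.50) in NaB, -1.73 to -0.71 (median -0.85) in Doxy and -1.02 to -0.37 (median -0.71) in DoxyNaB. The changes were 0.64 ± 0.75 (SD, n = 6, adjusted p = 0.0111) and 0.29 ± 0.52 (adjusted p = 0.220), and at the upstream probe, whose 60 bases are spread over 409 bases of genome, 0.50 and 0.16. When arrays were scaled to their median, the brighter probe turned to -0.11 and -0.27. In experiment 1 the Ctl and Doxy arrays were low at both probes (Ctl -2.51 and -3.48, Doxy -1.73 and -3.72), while the butyrate arrays were low at the upstream probe (-2.33 and -2.45) and not at the brighter one (-0.41 and -0.50). Without experiment 1 BMI1 gave 0.35 in NaB/Ctl, which passed (adjusted p = 0.00845), and 0.11 in DoxyNaB/Doxy, which did not. In experiment 1 alone the butyrate arrays lay on another slide and had another scan date than the arrays without butyrate. Slide, scan and butyrate cannot be told apart there, for any probe.

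Counted over genes, with the brightest tested probe standing for each, 5 of 7 members passed at an adjusted p under 0.01 in NaB/Ctl, where 68.2% of all tested probes did. TNFRSF19 and ALCAM were higher and CD44, MSI2 and PROM1 lower, beside 40% of all probes called higher and 28.2% called lower. No member was called higher under any of the other scalings, where 0 were higher and 2 lower with normexp, 0 and 4 under quantile normalization and 0 and 4 when arrays were scaled to their median. The 5 genes were called in the same directions in DoxyNaB/Doxy, where 67% of probes were called (37.3% higher, 29.7% lower), so the share of members called, 71.4% in each, was near that of all probes. The split of all calls depends on the scaling, since in NaB/Ctl the higher probes made up 58.7% of the calls here but 46.9% under quantile normalization and 21.7% when arrays were scaled to their median, which moved the median of all probes to -0.58. In DoxyNaB/Doxy the higher share was 55.6%, 46% and 25.9% in the same order, and the members' counts were 0 higher and 1 lower with normexp and 0 and 4 under each of the others. Over 2-fold, 2 of 7 passed in NaB/Ctl (CD44 and TNFRSF19, with 31.7% of all probes) and 2 in DoxyNaB/Doxy (CD44 and PROM1, with 30.6%). Treated and untreated groups did not overlap at 2 of the 9 tested probes in NaB/Ctl and at 3 in DoxyNaB/Doxy, with 43.1% and 41.4% of all probes.

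The median change of the 7 genes was -0.63 in NaB/Ctl and -0.49 in DoxyNaB/Doxy, beside 0.17 and 0.10 over all tested probes. With normexp these were -0.48 and 0.01, beside 0.07 and 0.21. Under quantile normalization they were -0.90 and -0.79, beside -0.09 and -0.11. When arrays were scaled to their median they were -1.38 and -1.05, beside -0.58 and -0.46. Dim probes as a class moved up with butyrate relative to bright ones, under the scaling used for the levels. The dimmest of 3 equal bins of probes by level had a median change of 0.65 in NaB/Ctl and 0.45 in DoxyNaB/Doxy. The brightest bin had -0.14 and -0.13. The bins were not computed under the other scalings, which move the median of all probes, so the sign of a bin's change was not tested there. PROM1, MSI1 and the variant 2 probe of MSI2 lie in the dimmest bin and had negative changes, and the upstream TNFRSF19 probe lies there too. MSI1 and the variant 2 probe of MSI2 passed the filter only through the groups without butyrate, which favours a fall. CD44 lies in the brightest bin.

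**Figure D3:**
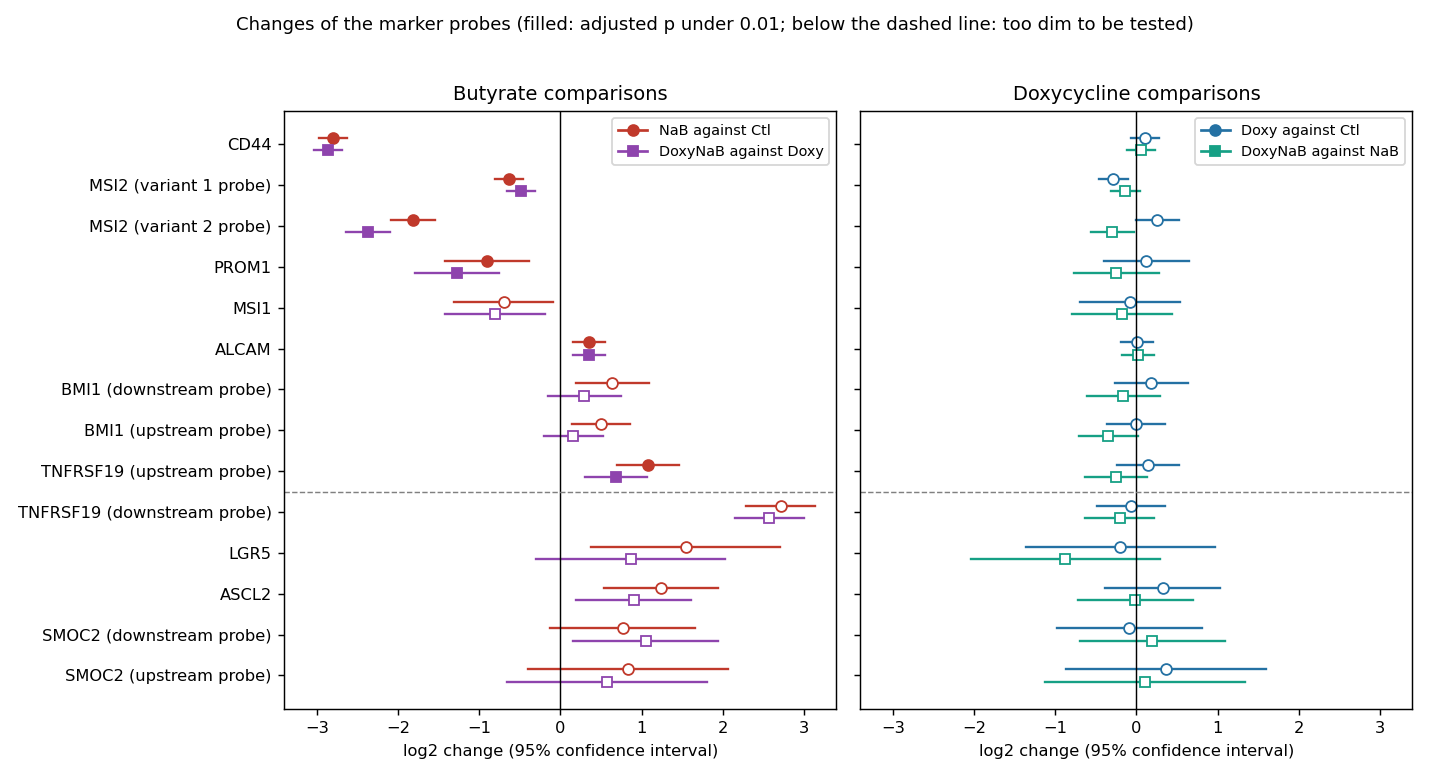
Log2 change (x axis) of each probe with its 95% confidence interval, for butyrate on the left and doxycycline on the right, with filled symbols where the adjusted p was under 0.01 and the 5 probes too dim to be tested below the dashed line. CD44 and MSI2 lie left of 0 and TNFRSF19 right of 0 in both butyrate comparisons, ALCAM lies right of 0 but left of it when arrays were scaled to their median, and no doxycycline symbol is filled.

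The markers that define crypt base stem cells most closely were at the limit of detection. The LGR5 level was -7.39 to -5.60 (median -6.67) in Ctl, -7.40 to -3.02 (median -4.99) in NaB, -7.51 to -5.94 (median -6.82) in Doxy and -7.50 to -2.93 (median -6.85) in DoxyNaB. It was well above background on 6 of 24 arrays, namely 1 Ctl, 3 NaB and 2 DoxyNaB arrays, all in experiments 2 to 4. The 5 butyrate arrays among them were the 5 arrays of the series whose negative control spots had a net signal over 100 intensity units (111 to 249), and of the 19 others (48.4 to 79.6 units) only a Ctl array had LGR5 well above background. The LGR5 signal was 56.5 to 173 units on those 5 arrays and 2.87 to 23.2 on the others. The part of the raised background in these values was not tested.

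**Figure D4:**
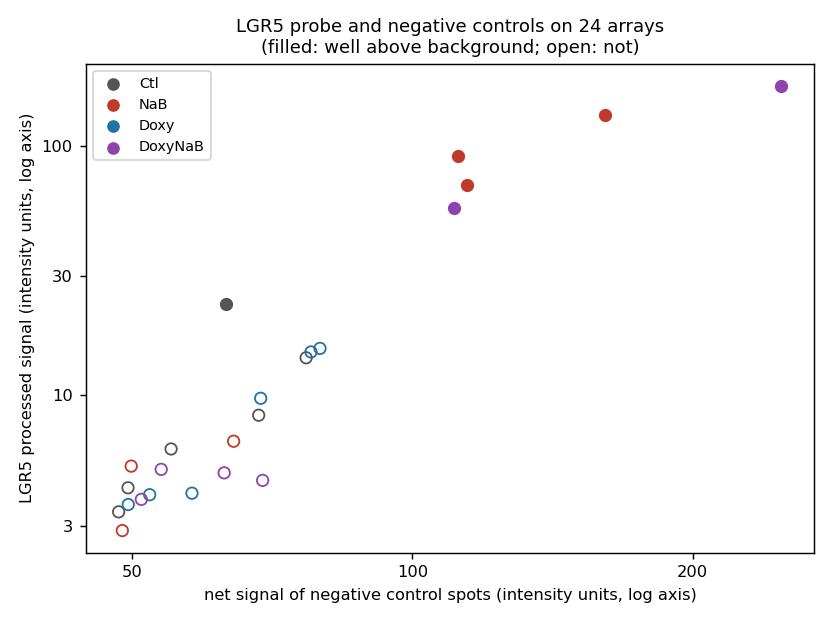
Processed signal of the LGR5 probe (y axis, log scale) against the net signal of the negative control spots (x axis, log scale), both in intensity units, for the 24 arrays by treatment. The filled points, where LGR5 was well above background, include all 5 arrays with negative controls over 100 units, which are NaB or DoxyNaB arrays, and 1 Ctl array.

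ASCL2 was well above background on 12 arrays, the 3 of experiments 2 to 4 in every treatment, and on none of the others. Its levels were -7.43 to -3.23 (median -5.53) in Ctl, -6.48 to -1.98 (median -4.17) in NaB, -7.28 to -3.05 (median -4.69) in Doxy and -6.26 to -1.54 (median -4.64) in DoxyNaB. In experiments 2 to 4, in order, ASCL2 was at -3.23, -4.35 and -3.56 in Ctl, -2.83, -2.06 and -1.98 in NaB, -3.32, -4.07 and -3.05 in Doxy and -1.54, -3.65 and -2.02 in DoxyNaB, higher with butyrate in each of these 6 pairs. Of the 6 butyrate arrays, 5 are those with raised negative controls, and the other, DoxyNaB of experiment 3, was the lowest for ASCL2. These values were not tested. SMOC2, a secreted matricellular protein enriched in LGR5-expressing cells, had its downstream probe well above background on the same 12 arrays and its upstream probe on 2. The same DoxyNaB array was the lowest of these butyrate arrays at the downstream SMOC2 probe (-4.28, with the others at -2.81 to -1.72). Arrays here limit what can be seen of these genes, and a level that is not well above background says nothing of whether the gene is expressed.

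Doxycycline moved no marker past the threshold. In Doxy/Ctl 0 of 7 genes passed in limma, where 0.5% of all probes did, and 1 had an unadjusted p under 0.05, in limma as in the methods' paired test. That gene was MSI2, whose variant 1 probe gave -0.28 ± 0.25 (SD, n = 6, adjusted p = 0.119) and whose variant 2 probe gave 0.26 ± 0.17 (adjusted p = 0.423). In DoxyNaB/NaB 0 of 7 passed, where 2.48% of all probes did, and at the probes standing for the genes none had an unadjusted p under 0.05 by either test. The variant 2 probe of MSI2, the dimmer of its pair, had an unadjusted p of 0.0322 there in limma (-0.30, adjusted p = 0.257). The changes of the 7 genes lay between -0.28 and 0.19 in Doxy/Ctl and between -0.25 and 0.05 in DoxyNaB/NaB.

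CD44, which is often listed as a Wnt target, gave 0.11 in Doxy/Ctl (95% confidence interval -0.06 to 0.28) and 0.05 in DoxyNaB/NaB (-0.12 to 0.22). The lower bounds lie above the AXIN2 changes of -0.58 and -2.53. The AXIN2 call in Doxy/Ctl was lost under every other scaling, and the study reports minimal DN-Tcf4 protein with doxycycline alone. Whether CD44 depends on Wnt signalling was not tested. The ALCAM intervals were similarly narrow, at 0.01 (-0.19 to 0.21) and 0.02 (-0.18 to 0.21). For PROM1, MSI1, BMI1 and TNFRSF19 the intervals in DoxyNaB/NaB reached down to between -0.61 and -0.80, so falls of that size could not be told from no change.

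The butyrate response was then compared with and without doxycycline. In the interaction, which is NaB/Ctl minus DoxyNaB/Doxy, 0 of 7 genes passed in limma, where 1.24% of all probes did, and at the probes standing for the genes none had an unadjusted p under 0.05 by limma or the paired test, while the variant 2 probe of MSI2 had 0.00666 in limma. The values ran from -0.15 for MSI2 to 0.39 for TNFRSF19. For CD44 the interaction was 0.06 ± 0.15 (SD, n = 6), with a 95% confidence interval of -0.19 to 0.30.

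Neighbouring genes of the crypt programme were described by lists. Of 21 other crypt stem and progenitor genes, 17 were tested, and in NaB/Ctl 9 were higher and 4 lower (median 0.30), with 8 and 5 under quantile normalization and 3 and 7 when arrays were scaled to their median. That is 13 of 17, beside 68.2% of all probes. The highest were EPHB3 and EPHB2, Eph receptors that position cells along the crypt (3.31 and 2.01), then LRIG1, an ErbB inhibitor of quiescent stem cells (1.71), and AXIN2 (1.19, or 0.44 and not called when scaled to the median). The lower ones were CDCA7 (-2.57), the cyclin-dependent kinase CDK6 (-2.17), the Wnt receptor ubiquitin ligase RNF43 (-2.08) and MEX3A (-1.34). In DoxyNaB/Doxy 5 were higher and 8 lower (median -0.52), where 67% of all probes were called.

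With doxycycline these neighbours differed in their counts from the 7 markers tested, though no test compared the lists. The list holds AXIN2, SOX4 and SOX9, which the study had already reported as lower with DN-Tcf4 and butyrate on these arrays. Its count is therefore no independent support for such a difference. In DoxyNaB/NaB 6 of the 17 were lower (1.87% of all probes were) and none higher, among them AXIN2 (-2.53), RNF43 (-1.01), SOX9 (-0.73) and SOX4 (-0.61), and AXIN2 alone was called in Doxy/Ctl, where 0.0896% of all probes were lower. With normexp 3 of the 17 were lower in DoxyNaB/NaB and when arrays were scaled to their median 1 was, which left SOX9 and SOX4 (adjusted p = 0.839 and 0.9999) and RNF43 (0.0173) uncalled. RNF43 was not called with normexp either (adjusted p = 0.219). Of all probes called in DoxyNaB/NaB 24.6% were higher, and 41.3% when arrays were scaled to their median. The interaction was positive and called for AXIN2 (1.95), SOX9 (1.01) and RNF43 (0.96), as for 1.03% of all probes. When arrays were scaled to their median none of the 17 was called, with SOX9 at 0.82, RNF43 at 0.77 and AXIN2 at 1.76. Of all interaction calls, 82.6% of 236 were positive under the scaling used for the levels, and 11.1% when arrays were scaled to their median. The numbers of calls behind the shares of 41.3% and 11.1% are not given here, so these shares do not show that calls changed sign. With normexp RNF43 was lost as well (0.62, adjusted p = 0.559).

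Of the R-spondin receptors and their partners, the pathway through which LGR5 acts, 7 of 10 were tested. In NaB/Ctl LGR4, the broadly expressed relative of LGR5, rose by 2.21 (adjusted p = 1.21e-08) and the Wnt co-receptor LRP6 by 1.07 (0.32 and not called when scaled to the median), while RNF43 and the co-receptor LRP5 (-1.34) fell. The ligand RSPO4 gave -1.14 (-0.64 and not called with normexp), but it was tested only through the groups without butyrate, being well above background on 5 NaB and 4 DoxyNaB arrays. Counted over the 7, 2 were higher and 3 lower, where 68.2% of all probes were called, against 2 and 5 under quantile normalization. LGR6 gave -0.38 and did not pass (adjusted p = 0.0715). In DoxyNaB/Doxy the counts were 2 higher and 4 lower, where 67% of all probes were called.

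All 15 Polycomb complex 1 partners of BMI1 were tested, and in NaB/Ctl 3 were higher and 7 lower (median -0.23), near the 68.2% of all probes called. The counts were 1 and 5 under quantile normalization and 0 and 11 when arrays were scaled to their median. PCGF6 (-1.81), PCGF2 (-1.08) and PCGF1 (-1.07), which take the place of BMI1 in other forms of the complex, were lower, as was the catalytic subunit RNF2 (-0.86). Among 14 hyaluronan and membrane-cytoskeleton partners of CD44, 12 were tested. Of these, 3 were higher and 5 lower in NaB/Ctl (median -0.29), beside 68.2% of all probes called, against 1 and 8 when arrays were scaled to their median. The hyaluronan synthase HAS3 fell by 2.92 and the hyaluronan receptor HMMR by 1.83, while the ligand SPP1 (osteopontin) rose by 3.31 and the hyaluronidase HYAL1 by 1.29 (0.54 and not called when scaled to the median). None of the Polycomb partners and 1 of the CD44 partners, ezrin (EZR, -0.26), was called in DoxyNaB/NaB, and EZR was called under none of the other scalings (adjusted p = 0.0104 to 0.9999).

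The promoters of the members were searched for the core letters of a Tcf motif, CTTTGAA or CTTTGAT, on both strands, since the induced protein competes at such sites. RefSeq entries on GRCh38.p14, each of 250 bases before and 50 after a gene's start, were at hand for 7 of the 10 members in 13 windows. The letters were found in 1 of 2 MSI2 windows and 1 of 4 PROM1 windows, and in 6.86% of all 35116 promoters. The 250 upstream bases of both windows are given in the direction of transcription, with the motif in capitals, because they are the only member windows that hold it.
MSI2, chr17:57255601-57255850, plus strand: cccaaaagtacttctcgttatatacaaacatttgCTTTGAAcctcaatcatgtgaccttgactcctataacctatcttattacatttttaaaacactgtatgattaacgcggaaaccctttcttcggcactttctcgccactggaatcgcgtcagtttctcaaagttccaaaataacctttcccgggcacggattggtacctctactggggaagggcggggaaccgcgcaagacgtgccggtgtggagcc
PROM1, chr4:16076119-16076368, minus strand: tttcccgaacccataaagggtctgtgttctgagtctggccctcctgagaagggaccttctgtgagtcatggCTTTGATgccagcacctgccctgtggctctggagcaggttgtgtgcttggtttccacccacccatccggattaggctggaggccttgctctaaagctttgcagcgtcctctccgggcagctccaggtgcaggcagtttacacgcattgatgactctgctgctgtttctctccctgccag

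Counted from the gene's start, the motif begins at position -216 for MSI2 and -179 for that PROM1 window. Both genes fell with butyrate, and neither was called in a doxycycline comparison. The E-box CAGCTG, the kind of site that ASCL2 family proteins bind, was found in both TNFRSF19 windows and in no other member's, and in 17.9% of all promoters. A match of letters is a description of the sequence and not a binding site.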

How the data were processed

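Total RNA of 24 samples was hybridised to Agilent 1-colour arrays. Per the file headers, the deposited intensities are Feature Extraction 9.5.3.1 processed signals, background-subtracted by that software. How the authors normalized them later did not enter here. Spots called as outliers were left out, each array was scaled to the 75th percentile of its non-control spots, log2 was taken, and spots of a probe were averaged. Spots were well above background as the software called them. Tested probes had to pass that call on each of the 6 arrays of some treatment. limma 3.58.1 (R 4.3.3) fitted the 4 treatments with the experiment as a block and Benjamini-Hochberg adjustment over 18983 probes. The experiment number pairs arrays by the labels, and deviations of same-numbered arrays correlated at -0.217 to 0.851. The study's methods call the 6 experiments biological replicates, and p-values measure the spread between them. The fit was tested on simulated data with known changes. Members and lists were chosen with earlier results of these data known. All member probes are named, and list genes were named by size of change. In bulk RNA, fewer expressing cells and less RNA per cell cannot be told apart. The number of arrays limits the precision. Names of member probes are those of the array design. List genes and checks were matched by a symbol taken from RefSeq accessions or gene symbols, or by the array's own name. Python 3.11.15 was used for reading and figures. Alternatives tried were another background correction, normalization, filter, block, test and threshold, and leaving out arrays.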

Additional observations from a re-analysis of the deposited data

Results flagged for a closer look

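Single arrays stood apart from the others of their treatment, by Dixon's test for 6 values, in 5 of 56 sets of 6 arrays (14 member probes in 4 treatments), where chance alone gives about 5%. The CD44 level of the NaB array of experiment 3 was 0.47, with the other 5 at 0.91 to 1.17, and that of the Doxy array of experiment 5 was 4.02, with the others at 3.78 to 3.83. Both lie far on their own side of the gap between butyrate and other arrays. The upstream BMI1 probe was low in experiment 1 in all 3 treatments concerned, at -3.48 in Ctl (the others -1.27 to -0.96), -2.33 in NaB (-0.89 to -0.57) and -3.72 in Doxy (-1.21 to -0.93). The cause was not tested.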

How the results depend on the processing

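Of 793 recomputed values of single genes, 710 stayed on the same side of the threshold, 62 lost and 19 gained a call, and 2 reversed, both ALCAM with arrays scaled to their median (-0.40 and -0.21). The counts for Doxy/Ctl, DoxyNaB/NaB and the interaction were 0 under every alternative run. In NaB/Ctl and DoxyNaB/Doxy, 5 genes each, the counts were 2 and 1 with normexp, fitted by default or by maximum likelihood, 3 and 3 with normexp and without experiment 5, 2 and 2 over 2-fold, and 3 and 1 in experiments 2 to 4 alone. In DoxyNaB/Doxy the count was 2 by the methods' paired test and 3 in experiments 5 and 6 alone. CD44 was called under each of these. Without the replicate block, that is without pairing by experiment, the counts were 2 and 3. Leaving out each experiment in turn gave 3 to 6 and 3 to 5, the lowest both without experiment 5. Normexp narrowed the range of levels, without the lowest and the highest 10% of probes, to 2.16, 3.34 and 2.22 on the Ctl, Doxy and DoxyNaB arrays of experiment 5, against 4.08 to 5.62 on the others. The normexp refits and the fits of single scans were chosen after seeing the data. Dim signal limits LGR5, ASCL2 and SMOC2 above all.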
